A study of Drosophila melanogaster with 3 samples.

Results

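The growth control genes examined here are 10 genes that set how much protein a fly cell makes and how large it becomes: Myc, Max, Mnt, Tor, raptor, Rheb, S6k, Thor, Lk6 and foxo. They were chosen by name, as 10 of the 13968 protein-coding genes on the main chromosome arms, and each was scanned from 2 kb before its start to 2 kb beyond its end for binding sites of CG18764. This region held 15 of the 3754 sites in the reproducible ("optimal") peak list, spread over 7 of the 10 genes. CG18764 is a zinc-finger protein with a ZAD domain, a protein interaction domain common among insect zinc-finger proteins. Chromatin immunoprecipitation with an anti-GFP antibody and sequencing were done on whole Drosophila melanogaster embryos of 0 to 16 h, with males and females mixed. All embryos came from a single transgenic line that stably carries CG18764 with GFP at its C terminus. The 3 biological replicates form 1 group, so no group comparison and no test was possible, and since whole embryos were used the bound cell types cannot be told apart.

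Myc is a transcription factor that binds DNA together with Max and raises the expression of ribosome and growth genes, while Mnt pairs with Max and acts against Myc. The kinase Tor, bound to raptor and switched on by the small GTPase Rheb, senses nutrients and insulin and drives translation by phosphorylating S6 kinase (S6k) and the translation inhibitor 4E-BP, the product of Thor. Lk6 is a kinase that acts on the cap-binding protein eIF4E, and foxo encodes the transcription factor that insulin signalling holds out of the nucleus and that activates Thor when insulin is low.

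CG18764 sites were found at the Myc, Max and Mnt genes, at Rheb, and at the translation and insulin output genes Thor, Lk6 and foxo. None of the optimal sites lay at Tor, raptor or S6k. The 7 genes with a site compare with 31.6% of all protein-coding genes scanned the same way. Longer genes hold more sites: of the genes with a body of 10 kb or more, 50.7% had a site, against 28.5% of the shorter ones. Among the growth genes, 4 of the 5 with a body of 10 kb or more (Myc, Mnt, Lk6 and foxo, but not S6k) and 3 of the 5 shorter ones (Max, Rheb and Thor) had a site. Mnt had 5, Lk6 3 and foxo 3, and 3 or more sites were present at 2.72% of all protein-coding genes and at 13.2% of those of 10 kb or more. Per length, the growth genes held 8.96 optimal summits per 100 kb, the extended bodies of all protein-coding genes 3.29 and the assembled genome 2.74. The 10 genes were picked by name with earlier results of these data known, so these values describe them and were not tested.

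**Figure D1:**
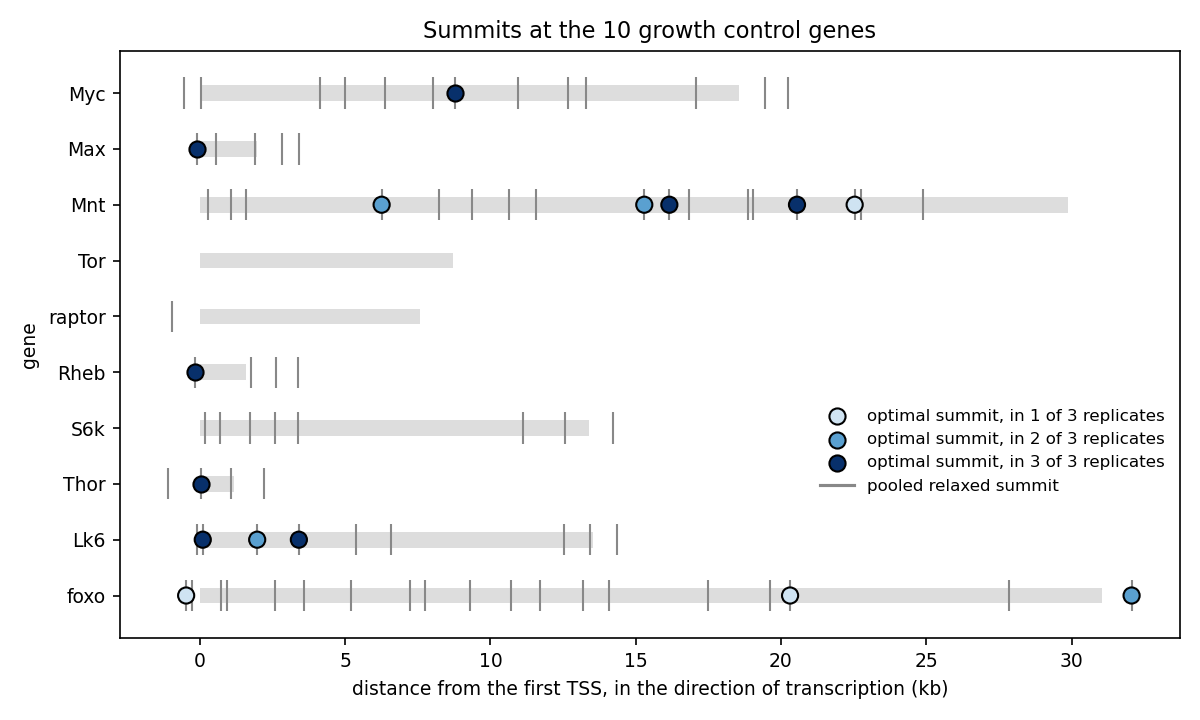
Position of each CG18764 summit at the 10 growth control genes, as distance in kb from the gene's first transcription start site (TSS) in the direction of transcription; grey bars are gene bodies, grey ticks are summits of the pooled relaxed list and circles are the 15 optimal summits, darker where more of the 3 replicates held the site. Tor has no pooled or optimal summit, raptor has 1 pooled summit, and Mnt, Lk6 and foxo hold 11 of the 15 optimal summits.

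Of the 15 summits, 6 lay within 500 bp of a TSS, each time a TSS of the growth gene itself, and these promoter sites belonged to Max, Mnt, Rheb, Thor, Lk6 and foxo. A promoter site was present at 17.9% of all protein-coding genes. The other 9 summits lay farther than 500 bp from any TSS, while 53% of all optimal summits lay within that distance. By gene annotation 10 summits were intronic, although the summit at Max lies in an intron of the neighbouring genes. The sites were mostly of moderate or low rank. Peaks were ranked by the authors' signal value, with rank 1 the strongest of 3754; the 15 summits had a median rank of 2361 against 1877.5 for the whole list, 1 was among the 1000 highest and 6 were among the 1000 lowest. That 1 was the site inside Lk6, at rank 25.

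The genomic sequence around the 6 highest ranked sites of different genes is shown here so that the bound DNA can be read beside the values. Each window runs from 75 bp before to 75 bp after the summit, with annotated exons left out, on the plus strand of dm6 (release 6). Capitals mark GAGAG in the Mnt window, and CGATA or GATAA in the Myc window, on either strand. The windows of Lk6, Max and Rheb hold none of these motifs. Nor do the 35 bp printed for Thor, which end before its summit.
Lk6 chr3R:11760975-11761125: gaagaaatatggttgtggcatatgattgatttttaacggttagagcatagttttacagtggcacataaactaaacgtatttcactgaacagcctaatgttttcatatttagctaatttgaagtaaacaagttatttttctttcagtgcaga
Max chr3L:19264203-19264326: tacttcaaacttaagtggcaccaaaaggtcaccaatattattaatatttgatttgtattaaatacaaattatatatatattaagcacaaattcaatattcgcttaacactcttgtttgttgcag
Rheb chr3R:5568692-5568842: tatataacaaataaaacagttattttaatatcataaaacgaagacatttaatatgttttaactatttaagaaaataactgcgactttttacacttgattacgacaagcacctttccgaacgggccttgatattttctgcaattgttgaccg
Mnt chrX:3692277-3692427: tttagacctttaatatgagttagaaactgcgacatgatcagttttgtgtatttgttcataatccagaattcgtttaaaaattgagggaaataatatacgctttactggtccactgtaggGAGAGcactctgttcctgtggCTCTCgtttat
Thor chr2L:3478399-3478433: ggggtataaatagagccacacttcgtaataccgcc
Myc chrX:3381851-3382001: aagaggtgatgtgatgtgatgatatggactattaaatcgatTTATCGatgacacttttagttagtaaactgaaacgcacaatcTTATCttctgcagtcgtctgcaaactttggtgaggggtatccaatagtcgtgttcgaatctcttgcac

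The windows at Lk6, Max and Rheb are rich in a and t. In the central 101 bp the GC content was 29.7% at the Lk6 site, 22.8% at Max and 31.7% at Rheb, and their flanks 300 bp to either side had 44.6%, 48.5% and 52.0%. The Thor site was the most GC-rich of the 15, at 47.5%. The Mnt site at X:3678056 was the least, at 20.8% against 48.0% in its flanks. Across the 15 sites the median was 35.6%, against a median of 32.7% over all optimal peaks, whose mean was 33.8% ± 8.87 (SD over 3754 peaks). The centre was poorer in GC than the flanks at 11 of 15 sites and at 77.7% of all optimal peaks. Motifs were counted in the same central 101 bp on both strands. CGATA, part of the DREF recognition sequence TATCGATA, was found at the Myc site and at the Mnt site X:3678056, or 2 of 15, against 17.6% of all optimal peaks. These 2 sites also held GATAA, which can overlap CGATA and was present at 24.0% of all peaks. GAGAG, a core of the GAGA-factor sequence, was found at 2 Mnt sites (X:3692352 and X:3694337) and at 9.46% of all peaks. TATCGATA, at 2.24% of all peaks, and CACGTG, the E-box that Myc and Max bind, at 0.826%, occurred at none of the 15. A match describes letters in the window and was not tested as a binding site.

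Among the Myc network genes, Myc itself (FBgn0262656, X:3373159-3391697, plus strand, 18.5 kb) carried its site deep inside the gene, not at its promoter. The summit at X:3381926 lay 8767 bp downstream of the only annotated TSS, in an intron that the noncoding gene lncRNA:CR44999 also overlaps. It ranked 1998 in the optimal list, and 2455, 1328 and 3376 in replicates 1, 2 and 3 (mean 2386 ± 1026, SD, n = 3). Each replicate list holds 30000 relaxed peaks, and these ranks put the site among the 3754 highest peaks of all 3 replicates. Of the 6 windows as printed above, that of Myc alone held CGATA or GATAA. The Myc promoter had only a weak pooled peak, 45 bp downstream of the TSS at X:3373204, with rank 8952 of 30000. There, replicate 3 held a summit at rank 8773 and replicates 1 and 2 held none.

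The Max gene (FBgn0017578, 3L:19262232-19264184, minus strand, 1.95 kb) encodes the partner that both Myc and Mnt need. Its summit at 3L:19264278 lay 94 bp upstream of the Max TSS and ranked 1125. The replicate ranks were 1189, 1121 and 1374 (mean 1228 ± 131, SD, n = 3), which lie close together, and this was the second strongest growth gene site. The position is shared: the TSS of Mettl5, on the opposite strand, lies 220 bp upstream of the Max TSS, and the summit is in an intron of Mettl5 and CG42374, 126 bp from the nearest CG42374 TSS. The peak list cannot assign the site to Max or to these genes.

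Mnt (FBgn0023215, X:3671801-3701672, plus strand, 29.9 kb), whose product represses with Max where Myc activates, had the largest number of sites of the 10 genes. Its 5 summits were all intronic, and each of the 3 replicates held 4 summits among its 3754 highest within the gene's region. The strongest, X:3692352, lay 2989 bp downstream of an internal Mnt TSS and ranked 1626; it ranked 1564, 1991 and 1261 in replicates 1 to 3 (mean 1605 ± 367, SD, n = 3). This peak was 100 bp wide, narrower than the list's median width of 400 bp. The promoter site of Mnt was at X:3687959, 276 bp upstream of an internal TSS, at rank 2513, with replicate ranks of 3177, 2898 and 2894 (mean 2990 ± 162, SD, n = 3). These 2 were in the 3754 highest peaks of all replicates. The other 3 were less even. X:3678056 ranked 2361, and 1573, 2383 and 3982 in the replicates. X:3687096, 1139 bp upstream of an internal TSS, ranked 3247, and 2948, 6316 and 1482 in the replicates. X:3694337 ranked 3638, with 4061 in replicate 1 and 3699 in replicate 3. There, replicate 2 had no summit within 100 bp, and its best ranked summit within 250 bp was 155 bp away at rank 3047. No optimal summit lay at the first Mnt TSS, which faces the Parg gene on the other strand across 299 bp.

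At the kinase gene Tor the merged and replicate lists differed. Tor (annotated as mTor, FBgn0021796, 2L:13004480-13013197, plus strand, 8.72 kb) had no summit in the optimal list and none in the pooled relaxed list, which reached 73.7% of all protein-coding genes. The nearest pooled summit lay 5130 bp outside the gene, at rank 23514, and the nearest optimal summit 60746 bp away. The replicates did not all show this absence. Replicate 1 had a summit at 2L:13004211, 269 bp upstream of the Tor TSS, at rank 559. Replicate 3 had a summit 4 bp from it, at 2L:13004207, at rank 1548, and a weaker one 66 bp upstream of the TSS at rank 7790. Replicate 2 had no summit in the gene's region, and its nearest lay 16148 bp from the replicate 1 summit, at rank 28399. The position lies between Tor and Vha68-1, a subunit gene of the vacuolar proton pump that is transcribed in the opposite direction; the gap between their TSSs is 373 bp, and the replicate 1 summit is 104 bp upstream of the Vha68-1 TSS. This window, shown because the merged lists miss it, holds 1 CGATA (capitals, dm6 plus strand).
Tor chr2L:13004136-13004286: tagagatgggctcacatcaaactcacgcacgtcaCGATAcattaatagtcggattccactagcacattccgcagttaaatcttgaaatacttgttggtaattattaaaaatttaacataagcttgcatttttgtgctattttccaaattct

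Such sites were rare. Replicates 1 and 3 shared 2391 sites among their 3754 highest peaks, and 18 of these, 0.753%, had no pooled summit within 500 bp; the site between Tor and Vha68-1 had the best replicate 1 rank of the 18. The share was 0.326% for replicates 1 and 2 and 0.595% for replicates 2 and 3. Of the 2074 sites shared by all 3 replicates, 5, or 0.241%, lacked a pooled summit, and 1 of these 5 was at another gene of the same network, Pi3K92E, which encodes the catalytic subunit of the insulin-regulated PI3 kinase. Its summits lay in the 5′ UTR at 3R:20634233, 3R:20634180 and 3R:20634231 in replicates 1, 2 and 3, between 499 and 552 bp downstream of the TSS, with ranks of 1840, 1976 and 1589. The nearest pooled summit was 36803 bp from the replicate 1 summit. The stretches without any pooled summit were 42.4 kb long at Tor and 106 kb at Pi3K92E, against a median of 1.77 kb between neighbouring pooled summits. Gaps at least as long made up 0.86% and 0.15% of the 29993 gaps. In the Tor gap, replicates 1, 2 and 3 had 4, 0 and 9 summits, and in the Pi3K92E gap 24, 6 and 10. Why the pooled list lacks these stretches was not tested. Both genes were singled out after their values were seen, and all counts of optimal sites given here rest on the pooled list.

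**Figure D2:**
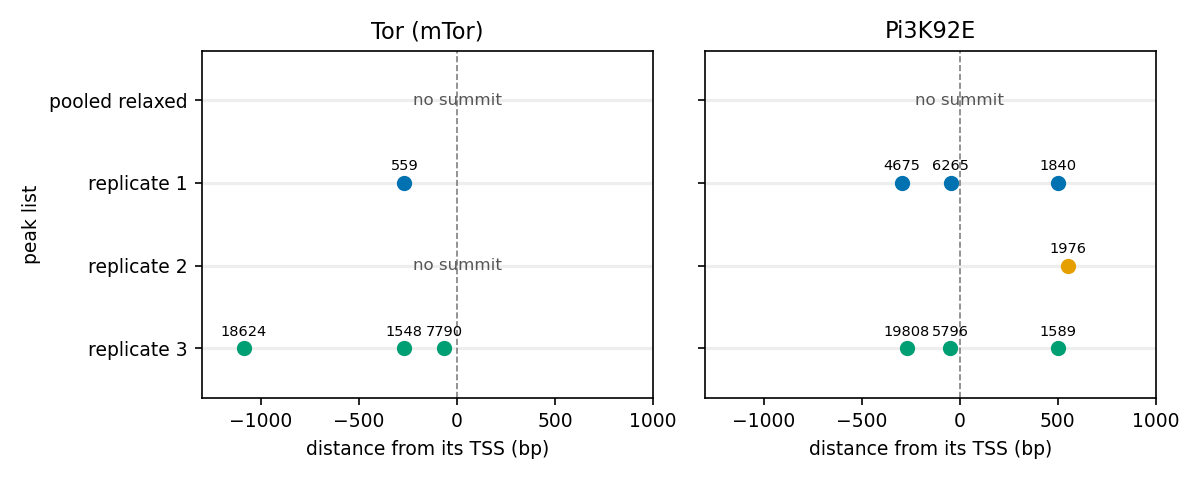
Summits near the TSS of Tor (left) and Pi3K92E (right) in the pooled relaxed list and in each replicate, as distance in bp from the TSS (negative upstream); the number at each point is its rank in that list. At Tor, replicates 1 and 3 hold summits at ranks 559 and 1548 while replicate 2 and the pooled list hold none, and at Pi3K92E all 3 replicates hold a summit ranked between 1589 and 1976 with none in the pooled list.

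The gene raptor (FBgn0029840, X:6082634-6090201, minus strand, 7.57 kb), whose product brings substrates to Tor, had 1 pooled summit and no optimal one. The pooled summit at X:6091163, rank 7853, lay 962 bp upstream of the raptor TSS but 42 bp upstream of the TSS of Nep1, a peptidase gene. At that place replicate 1 had no summit, replicate 2 ranked 12473 and replicate 3 ranked 3612, so it passed the 3754 mark only in replicate 3. At the raptor TSS itself, a summit was present in replicate 2 alone, at rank 19116.

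Rheb (FBgn0041191, 3R:5568921-5570491, plus strand, 1.57 kb), the GTPase that activates Tor, had an optimal site. Tor and raptor had none in that list, although replicates 1 and 3 ranked a summit beside Tor at 559 and 1548. The intergenic Rheb summit at 3R:5568767 ranked 1425, and 1093, 2227 and 1307 in replicates 1 to 3 (mean 1542 ± 602, SD, n = 3). It was within the 3754 highest of every replicate. It lay 154 bp upstream of the Rheb TSS and 152 bp upstream of the TSS of CG2931, which is transcribed the other way from a start 306 bp away, so the summit is midway between the pair and cannot be assigned to either. Replicates 1 and 2 placed it nearer CG2931, at 97 and 94 bp, and replicate 3 nearer Rheb, at 119 bp.

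The targets of Tor differed from each other. S6k (FBgn0283472, 3L:5797549-5810931, minus strand, 13.4 kb) had 8 pooled summits and none in the optimal list; the best, at 3L:5807555 in the gene body 3376 bp downstream of the TSS, ranked 10470. The best S6k ranks in the replicates were 16981, 5238 and 4101, and no replicate placed an S6k summit among its 3754 highest. The replicate 3 summit at rank 4101 lay 166 bp downstream of the TSS, which faces the TSS of kri across 42 bp. The nearest optimal summit was 13336 bp away, ranked 362, with mad2 as the gene of its nearest TSS.

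Thor (FBgn0261560, 2L:3478434-3479612, plus strand, 1.18 kb), the 4E-BP gene, had its summit 40 bp inside the transcript, in the 5′ UTR at 2L:3478474. The Thor site ranked 1787, and 2028, 1750 and 3333 in replicates 1, 2 and 3 (mean 2370 ± 845, SD, n = 3). Replicate 3 gave it the lowest place, still within the 3754 highest. Only the 35 bp of the window that lie before the first exon are printed above.

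Lk6 (FBgn0017581, 3R:11750931-11764457, minus strand, 13.5 kb) held the strongest site of the 10 genes and 1 of the strongest of the series. The summit at 3R:11761050 ranked 25 of 3754, in the top 0.666%, with a width of 357 bp. The replicates agreed closely on it, with ranks of 21, 21 and 27 (mean 23.0 ± 3.46, SD, n = 3) and summits at most 14 bp from the pooled one. It lay in an intron between the 2 Lk6 start sites, 971 bp upstream of the inner one, and was thus 1 of only 3 among the 25 highest peaks, and of 19 among the 100 highest, that were farther than 500 bp from any TSS. The nearest TSS of another protein-coding gene, l(3)neo38, was 10500 bp away. The authors' signal value at this site was 1473, against 167.6 and 124.3 at the other 2 Lk6 summits; the values have no stated scale and serve to order peaks within the list.

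The site at the outer Lk6 promoter was of middling rank. It lay in the 5′ UTR at 3R:11764358, 99 bp downstream of the TSS, and ranked 2295, and 3093, 2791 and 1538 in the replicates (mean 2474 ± 825, SD, n = 3). The third summit, 3R:11762485, was intronic and 1972 bp downstream of the same TSS; it ranked 3576, and 14074, 3032 and 3522 in the replicates. Replicate 1 was far below the others there, and the mean rank of 6876 had an SD of 6238 (n = 3).

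The genes whose strongest site was most like the main Lk6 site were found by the distance between the log10 ranks in the 3 replicates, over the 3762 other protein-coding genes whose strongest optimal site had a summit within 100 bp in the relaxed list of every replicate. The closest were atos and CG9003, which share a peak at rank 26 with replicate ranks of 25, 27 and 23 (distance 0.15). Next was ph-p, a Polycomb group gene, at rank 22 with 14, 20 and 25 (distance 0.18). Unlike the Lk6 site, these summits were 47 bp upstream of an atos TSS and 481 bp upstream of a ph-p TSS.

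The gene foxo (FBgn0038197, 3R:14056945-14087978, plus strand, 31.0 kb) had 3 sites, all low in the list and none among the 3754 highest peaks of all 3 replicates. The intronic summit at 3R:14077258 ranked 3021, and 5165, 3067 and 4320 in the replicates, so only replicate 2 held it among its 3754 highest. The summit at 3R:14089012, beyond the end of foxo and 505 bp upstream of the TSS of Npc2b, a sterol-binding protein gene, ranked 3121, and 2321, 3674 and 3953 in the replicates. The promoter summit at 3R:14056472, 473 bp upstream of the TSS, ranked 3191. Replicate 1 had it at 2567 and replicate 3 at 4734. In replicate 2 the best ranked summit within 250 bp was 205 bp away, at rank 2413. Replicate 3 had no summit at foxo among its 3754 highest, while replicates 1 and 2 had 3 each. Replicate 1 alone held a further summit within its 3754 highest, at 3R:14062132 with rank 3321, which the pooled list carried at rank 5620. By the 100 bp match, the summit at 3R:14089012 was among the 3754 highest of replicates 1 and 2, and the others of 1 replicate each. What the foxo sites lacked was thus a place among the 3754 highest of every replicate. In the whole relaxed lists, all 3 replicates held a summit within 100 bp of 3R:14077258 and of 3R:14089012. At 3R:14056472 only replicates 1 and 3 did.

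**Figure D3:**
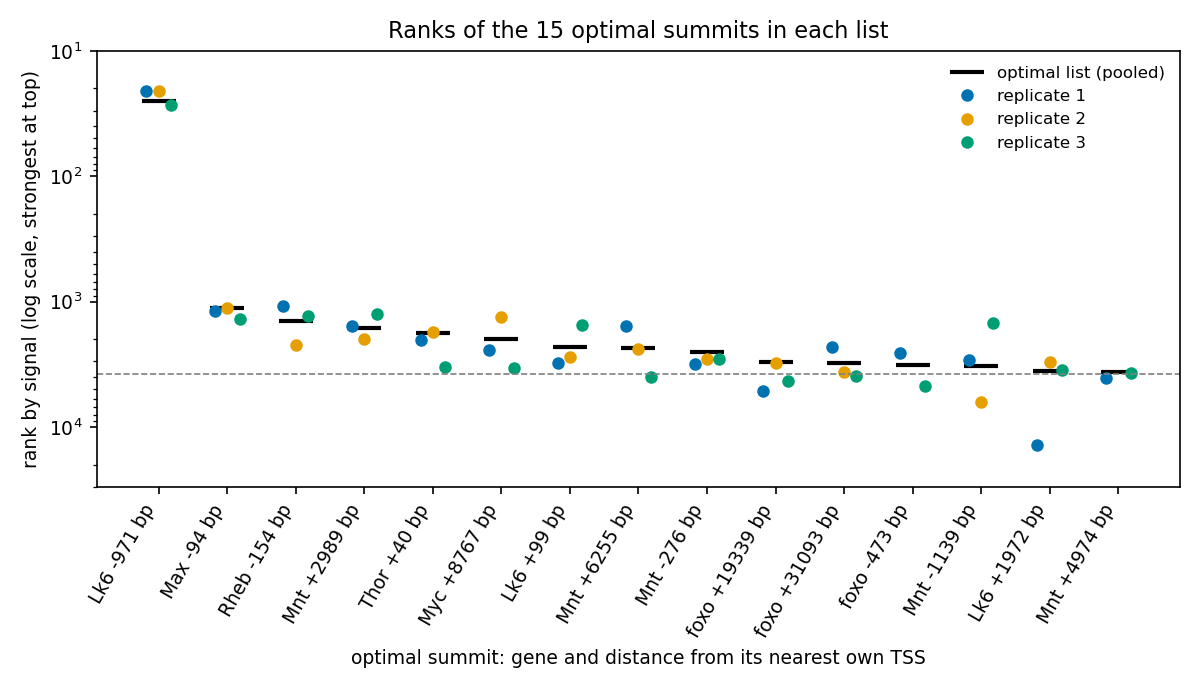
Rank by signal (log scale, strongest at the top) of the 15 optimal summits in the optimal list (bars) and in replicates 1 to 3 (points), each named by gene and distance in bp from its nearest TSS of that gene; the dashed line is rank 3754. The Lk6 site at rank 25 stands above the other 14, which lie between 1125 and 3638, and replicate ranks spread most at the Lk6 site at rank 3576, from 3032 to 14074.

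Across the 15 sites, 8 were among the 3754 highest peaks of all 3 replicates, 4 of 2 replicates and 3 of 1 replicate. In the whole optimal list, 56.8% of peaks were found in all 3 and 84.1% in 2 or 3. The 8 were the single sites of Myc, Max, Rheb and Thor, 2 of the 5 at Mnt and 2 of the 3 at Lk6. A site counted as found where a replicate summit lay within 100 bp. Ranks from lists of the same length were set side by side here, and the number of reads behind each list is unknown.

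The other genes of the insulin, TOR and Myc network were looked up in a list of 57. Of these, 14 (24.6%) had a promoter site, against 17.9% of all protein-coding genes, and 22 (38.6%) had a site within 2 kb of the gene body, against 31.6%. The difference in promoter sites was not kept where the replicates had to hold the peak. Among peaks found in all 3 replicates, 5 network genes (8.77%) had a promoter site, against 11% of all protein-coding genes. With both other replicates required it was 8 (14.0%) against 13.1% without replicate 1, 7 (12.3%) against 12% without replicate 2 and 6 (10.5%) against 12.4% without replicate 3. No promoter site was found at the 9 insulin ligand and binding protein genes or at the 6 genes of the TSC complex and the Tor partners. From the insulin receptor to Akt, 3 of 6 genes had one: Pi3K21B, InR and Pdk1. Of these 3, only InR had a summit within 100 bp in every replicate, at ranks 1349, 1993 and 2877. The Pi3K21B site was matched in replicate 2 alone. The Pdk1 site, at rank 3488, was unmatched in replicate 1 and ranked 12715 and 2960 in replicates 2 and 3. It lay 435 bp upstream of a Pdk1 TSS but only 194 bp from a TSS of lncRNA:CR45805. In the Myc, Max and Mondo group a promoter site was found at 4 of 9 genes. In the amino acid sensing group it was 4 of 15 and among the Tor outputs 2 of 8. Among energy and stress inputs it was 1 of 4.

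None of these 14 promoter sites ranked above the main Lk6 site. Sesn, which encodes the amino acid sensor sestrin, had a promoter site at rank 196, equally near a TSS of CG46429, with 292, 139 and 233 in the replicates. Lamtor3, of the Ragulator complex that docks Tor on lysosomes, had one at rank 231. Replicates 2 and 3 held it at 228 and 304, and replicate 1 had no summit within 100 bp. REPTOR, a transcription factor that Tor holds in check, ranked 369 (355, 491 and 257 in the replicates).

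Among Myc's cofactors, pont, a helicase of chromatin remodelling complexes, had a site at rank 437 (421, 377 and 646 in the replicates) and its partner rept at 2392 (10198, 1700 and 3649). For bigmax, the partner of the sugar-responsive factor Mondo, the site ranked 881 with replicate ranks of 812, 979 and 927, and was nearer the TSS of Hmu. The site at brat, which encodes a translational repressor that limits Myc, ranked 2697 (3428, 3270 and 4147 in the replicates). Pi3K21B, the regulatory subunit of PI3 kinase, had a site at rank 722 that only replicate 2 held within 100 bp, at 1117. InR, the insulin receptor gene, had its promoter site at rank 1905 (1349, 1993 and 2877) and 6 sites in all. Its body is longer than 10 kb, and 13.2% of protein-coding genes of 10 kb or more had 3 or more sites. Wdr24, of the GATOR complex, had a site at rank 1752 (1406, 4000 and 1308) that lay nearer IntS11. Wdr59, of the same complex, had one at rank 3018 (4564, 2801 and 3526). The gene scyl, a hypoxia-induced inhibitor of Tor signalling, had one at rank 2566 (4401, 4318 and 1689 in the replicates). These counts, too, describe the list and were not tested.

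**Figure D4:**
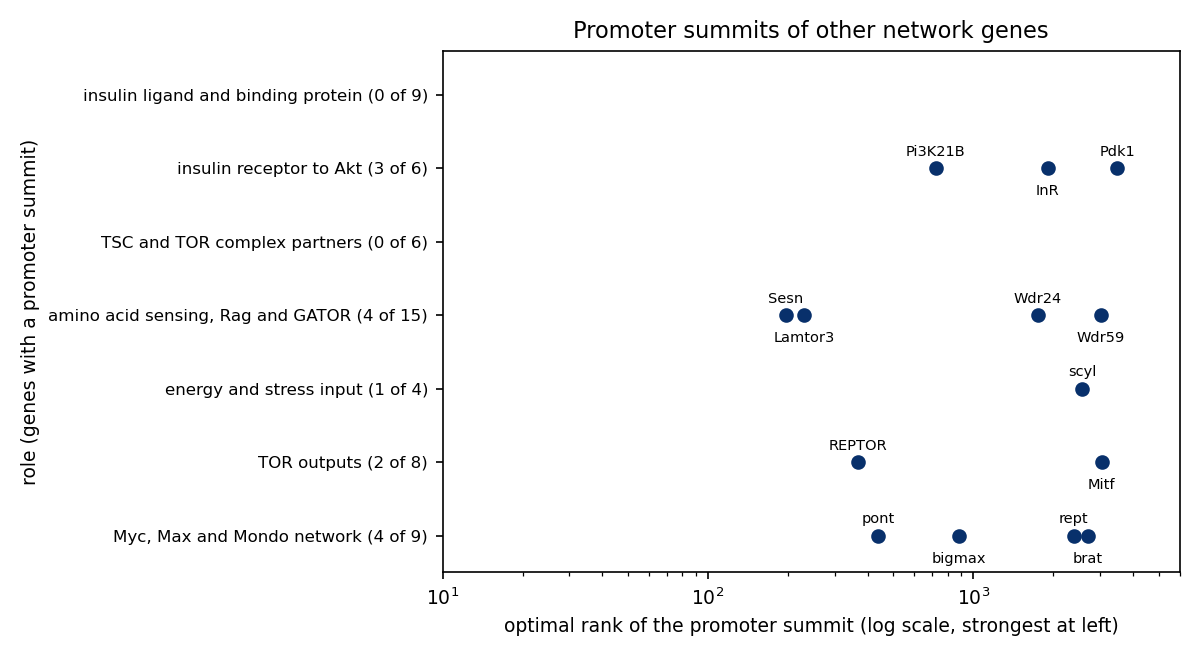
Optimal rank (log scale, strongest at the left) of the promoter summits at 14 of the 57 other network genes, grouped by role; the counts beside each role are the genes with a promoter summit out of those listed. Sesn, at rank 196, is the strongest, and the insulin ligand and TSC rows are empty.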

How the data were processed

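Chromatin immunoprecipitation of GFP-tagged CG18764 was done on 3 replicates, and fragments were 200 to 800 bp per the labels. The authors deposited, on dm6, a relaxed list of 30000 peaks per replicate, a pooled relaxed list and an optimal list that equals its 3754 highest peaks. The deposited signal value is a score with no stated scale and was used only to rank peaks within a list. By their deposited names, the optimal list was thresholded by IDR (irreproducible discovery rate), and the pooled relaxed list holds peaks and background used as IDR input. The sources used here name no aligner, peak caller or value of the IDR threshold (not given), and depth is unknown. All were called against 1 control dataset, per the deposited file listing; dm3 lists were not used.

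Gene models came from Ensembl release 115 (18277 genes, 23694 TSS positions). Positions are 1-based. Tor was matched as mTor, Imp-L2 as ImpL2 and pUf68 as hfp through RefSeq synonyms (3 symbols); torso, which shares the synonym Tor, was not used. Regions were gene bodies extended by 2000 bp, promoters 500 bp around a TSS, and summits matched within 100 bp. Named were all members, up to 12 other network genes with a promoter site by rank, genes of nearest TSSs, and the 3 genes most like the strongest member; Pdk1, Mitf, Pi3K92E, PRAS40, ImpL2 and the genes beside other sites missing from the pooled list were named after their values were seen. Members and lists were chosen with earlier results of these data known. A listed network gene is not reported here and was left out of the counts. No test was run. Counting was tested on simulated peaks. Python 3.11.15, numpy 2.4.6, pandas 2.3.3 and matplotlib 3.10.9 were used.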

Additional observations from a re-analysis of the deposited data

How the results depend on the processing

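The settings varied were the gene extension, the promoter distance, the peak list, the summit match and the replicates required. The 15 summits at growth genes became 5 among the 1877 highest optimal peaks, 80 in the pooled relaxed list, 8 among the 2132 peaks found in all 3 replicates, and 9 to 10 when a replicate was left out and both others had to hold the site, a rule that by its construction keeps only 2358 to 2624 peaks. Without replicate 1 it was 9 and without replicate 2 also 9. The 6 genes with a promoter summit became 3 among the 1877 highest. In the peaks of all 3 replicates 5 had one, against 11% of all protein-coding genes. It was also 5 without replicate 1, 2 or 3, against 13.1%, 12% and 12.4%. These promoter counts were not tested. The 14 network genes with a promoter summit became 7 among the 1877 highest, 38 in the pooled list, 5 in the peaks of all 3 replicates and 6 to 8 with a replicate left out (8, 7 and 6 without replicates 1, 2 and 3). The share of all protein-coding genes with a promoter summit was not counted among the 1877 highest, in the pooled list or at other promoter distances. The promoter counts at these settings therefore have nothing to be set against. The 8 summits found in all replicates became 13 when whole relaxed replicate lists were used. The 7 genes with an optimal summit ranged from 5 to 9 over all settings. The 9 came with the pooled list, which reached 73.7% of all protein-coding genes. At the other varied settings the share of all protein-coding genes was not counted, so the range describes the counts alone. Max and Rheb drop out with the gene body alone, Myc and foxo among the 1877 highest, and foxo among the peaks of all 3 replicates. For foxo, 0 summits were left without replicate 1 or 2 and 1 without replicate 3. Promoter distances of 250 and 1000 bp gave 4 and 6 growth genes and 13 and 15 network genes. No paired analysis was possible because there is 1 group. Depth is unknown, so a weak site and an absent site cannot be told apart at raptor or S6k.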

Other observations

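Besides Pi3K92E, 4 sites were among the 3754 highest peaks of all 3 replicates and had no pooled summit within 500 bp. They were singled out after their values were seen. The site at bchs, which encodes a BEACH-domain protein involved in autophagy, lay 452 bp downstream of its TSS and ranked 1054, 214 and 805 in replicates 1, 2 and 3. The site 109 bp upstream of CG9467 ranked 1367, 1381 and 2785. The site at loco, a regulator of G-protein signalling, lay 1740 bp downstream of a TSS and ranked 2380, 1692 and 3144. The site 313 bp upstream of Hasp ranked 2723, 2113 and 1739.

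Other network genes had several optimal sites away from their promoters. PRAS40, which encodes an inhibitor of the Tor kinase complex, had 4 in its body extended by 2 kb and none within 500 bp of a TSS. ImpL2, a secreted protein that binds insulin-like peptides, had 2 and none at its promoter. Both gene bodies are longer than 10 kb. Of the protein-coding genes of 10 kb or more, 13.2% had 3 or more sites, as PRAS40 did, and 50.7% had a site. Replicate ranks of these sites are not given here.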
